A study of Nicotiana tabacum with 15 samples.

Results

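In root RNA of tobacco seedlings, 46 of 69500 gene models were near 0 in an F1 hybrid while both of its parents expressed them, or were expressed in a hybrid while both parents were near 0. The hybrid GJ (G70 × Jiucaiping No.2) has the mother G (G70) and the father J (Jiucaiping No.2), and the hybrid KJ (K326 × Jiucaiping No.2) has the mother K (K326) and the same father J, with 3 libraries per genotype and no treatment named in the labels. A gene was called off in a hybrid at 2 FPKM or more in all 6 parental libraries and 0.2 FPKM or less in all 3 hybrid libraries, and on at 0.2 FPKM or less in all 6 parental libraries and 1 FPKM or more in all 3 hybrid libraries. FPKM is the fragment count of a gene scaled by its transcript length and by the mapped fragments of the library. By these limits 19 genes were off in GJ, 17 were on in GJ, 2 were off in KJ and 13 were on in KJ, and 5 genes were on in both hybrids. The genes were selected on the FPKM of the hybrid and its parents, so the levels in those libraries are a description. What could be tested is the cross that did not choose the gene, that is, KJ against K for the genes of GJ and GJ against G for the genes of KJ. The 5 genes on in both hybrids were left out of these tests. The libraries tested thus had a part in choosing the genes on in a single hybrid, and their counts beside shares of all genes are descriptions. J entered the choice in both crosses and is on neither side of these tests. The spread behind their p-values was estimated over all 15 libraries, including those that the rule held near 0 for these genes, so the counts are also given with the hybrid and its mother fitted alone.

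An F1 hybrid receives a set of chromosomes from each parent, so a gene that both parents carry is normally carried by the hybrid too. Expression of such a gene usually lies between the parental levels or close to either of them. RNA levels do not tell a gene that is present and silent from one that is absent. Tobacco is an allotetraploid, whose genome holds related copies of most genes from its ancestral species, and reads can be shared between near-identical copies. The gene models are known here by their Nitab4.5 identifiers only. They could not be paired with names, functions or positions, so no role is given to any of them.

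The 15 libraries had similar totals, with summed FPKM between 801594 and 827438, and read counts per gene are not known, so no counting error can be given. Replicates of a genotype correlated with r between 0.963 and 0.992 on the log2 scale across genes. Within G, J and K the library with the lowest mean r to its replicates was G replicate 1, J replicate 2 and K replicate 2, and without these 3 libraries 22 genes were off and 21 on in GJ, and 2 off and 20 on in KJ. The titles of the deposited samples name leaf while the tissue entry names young root, and the study describes root. No markers of root or leaf could be looked up by identifier. Genes expressed in a single parent of a cross were used to look at the labels. Of 11 genes with at least 2 FPKM in every J library and at most 0.2 in every K library, 6 were at 0.2 FPKM or less in all KJ libraries. Of 33 genes with the opposite pattern, 0 were at this level in KJ. In GJ, 7 of 43 genes of G alone and 2 of 31 genes of J alone were at 0.2 FPKM or less in every library. Above 0.2 FPKM in every GJ library were 14 of the 43 and 29 of the 31, and any others had GJ libraries on both sides of this level. The median ratio of GJ to the expressing parent was 0.306 for the genes of G and 0.779 for those of J. In KJ, 33 of the 33 genes of K alone and 4 of the 11 genes of J alone were above 0.2 FPKM in every library. Whether the plants sequenced as hybrids came from the crosses given in the labels was not tested. In bulk root RNA, fewer cells of a type and less RNA per cell cannot be told apart.

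The 19 genes off in GJ included well expressed parental genes. Their mean over the 6 G and J libraries lay between 2.82 and 80.8 FPKM, with a median of 10.4, and 11 of the 19 had a parental mean of 10 FPKM or more. In GJ, 37 of the 57 values were exactly 0 and the highest was 0.16 FPKM, and 8 genes were listed at 0 in all 3 GJ libraries. Nitab4.5_0006411g0010 had 0, 0.07 and 0.10 FPKM in GJ, against 38.4, 114 and 69.0 in G and 94.7, 56.6 and 112 in J. Nitab4.5_0003151g0070 had 0, 0.16 and 0 FPKM in GJ, against 67.2, 68.8 and 76.6 in G and 62.6, 76.2 and 67.2 in J. These are the most abundant genes of the class in the parents, the first with wide spread between parental libraries and the second with values between 62.6 and 76.6.

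Other genes of the class had similar levels in both parents and as clear a gap to GJ. Nitab4.5_0000287g0070 was listed at 0 in all GJ libraries and had 19.98, 19.5 and 25.7 FPKM in G and 19.4, 15.9 and 18.9 in J. Nitab4.5_0002697g0030 had 0, 0.06 and 0 FPKM in GJ, 14.9, 16.9 and 14.7 in G and 16.03, 20.03 and 15.3 in J. Nitab4.5_0000363g0030 was detected at 0.04, 0.07 and 0.06 FPKM in GJ, against 13.0, 17.4 and 18.0 in G and 13.0, 11.5 and 16.4 in J. Nitab4.5_0001239g0020 was above 0 in all 3 GJ libraries, at 0.12 FPKM in each, against 3.90 to 5.87 FPKM in G and J. Of the 19 genes, 3 had every G library above every J library and 0 had the reverse. The share of all genes with this separation was not counted, and the rule used these libraries. No difference between the parents is read from it. For 16 genes the highest parental library was less than 3 times the lowest. The exceptions were Nitab4.5_0001439g0090 (7.29 to 32.6 FPKM), Nitab4.5_0002311g0090 (2.53 to 13.4) and Nitab4.5_0012336g0030 (2.13 to 11.6).

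**Figure D1:**
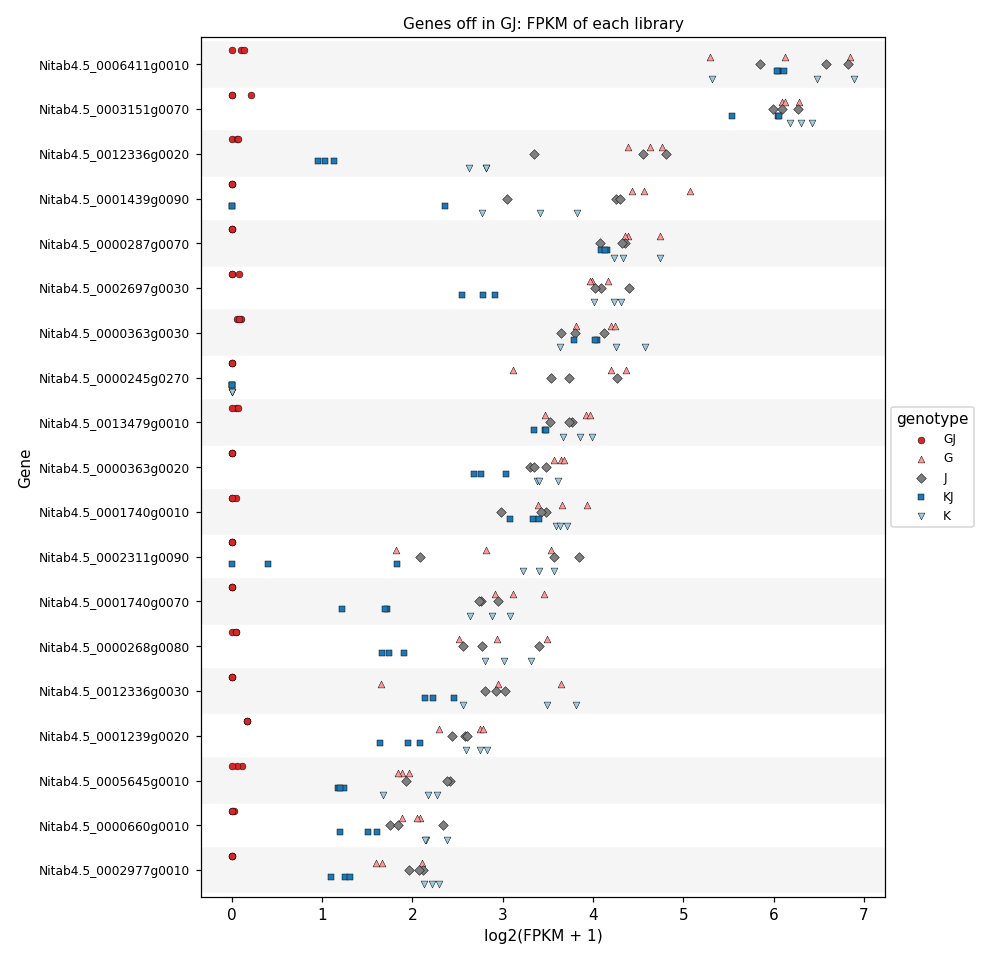
FPKM of each of the 15 libraries, as log2(FPKM + 1) on the x axis, for the 19 genes off in GJ, with the gene of the highest parental mean at the top. Each point is a library. The GJ points lie at or next to 0 by the choice of genes, and the KJ points lie at or below those of K for most genes.

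Nearly all of these genes were expressed in the other cross. In K, 18 of the 19 genes had 2 FPKM or more in every library, close to the 98.2% of all 26668 genes with this level in every G and J library. The remaining gene was at 0.2 FPKM or less in all K libraries, against 0.0225% of those 26668 genes, and in all KJ libraries, against 0.0112%. This was Nitab4.5_0000245g0270, which had 0 FPKM in all GJ, KJ and K libraries, against 19.6, 17.4 and 7.68 in G and 12.3, 10.6 and 18.2 in J, so it was seen in 2 of the 5 genotypes. J, which expressed it, is the labelled father of both hybrids.

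Of the genes present in K, a part was lower in KJ than in K by the test and others were close to the ratio of all genes. For all 18 the mean FPKM in KJ was below that in K, although with median-of-ratios scaling the log2 fold changes of Nitab4.5_0006411g0010 and Nitab4.5_0000363g0030 were 0.15 and 0.094. The ratio of KJ to K had a median of 0.441 and ran from 0.0995 to 0.833, where the median over 26198 genes with 2 FPKM or more in every G, J and K library was 0.82. A ratio of 0.5 or less was found in 11 of the 18 genes, or 61.1%, and in 10.9% of those 26198 genes. Every KJ library lay below every K library in 16 of the 19 genes, against 43.6% of the 26668 genes expressed in G and J. In 13 of the 19 every KJ library lay below every K and every J library, against 36% of them. These shares are given as descriptions, with no test.

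By limma's moderated test of KJ against K (adjusted by Benjamini-Hochberg over 37232 genes, with a change of 1 or more on the log2 scale required), 6 of the 19 genes were lower in KJ and 0 were higher, where 6.08% of all tested genes were called lower and 3.19% higher. All fold changes are on the scale of log2(FPKM + 1), which makes those of low genes smaller, and where a group is listed at 0 the fitted difference depends on the added 1. The 19 include Nitab4.5_0000245g0270, which could not be called, being at 0 FPKM in all KJ and K libraries. It entered the test only through the G and J libraries, which chose it. The median log2 fold change of the 19 genes was -0.83, against -0.26 over all tested genes, and with median-of-ratios scaling, where the median over all tested genes was 0.005, the count was also 6. With KJ and K fitted alone it was 6 as well, where 5.85% of all tested genes were called lower. The 19 genes were chosen at 2 FPKM or more in every G and J library. Tested genes include lower ones, which have less room to fall on this scale, so these shares are not a like comparison. The largest fall was that of Nitab4.5_0002311g0090, with 2.55, 0.32 and 0 FPKM in KJ and 9.58, 8.37 and 10.9 in K (log2 fold change -2.66 ± 0.53 SE, adjusted p = 0.00408, limma). Nitab4.5_0001439g0090 had 0, 4.15 and 0 FPKM in KJ and 9.64, 5.84 and 13.1 in K (log2 fold change -2.55 ± 0.55 SE, adjusted p = 0.00557, limma), so a single KJ library carried its whole level there. Nitab4.5_0012336g0020 had 0.94, 1.19 and 1.04 FPKM in KJ and 6.01, 5.15 and 6.04 in K (log2 fold change -1.71 ± 0.28 SE, adjusted p = 0.00162, limma). In J, the father, this gene had 27.1, 9.16 and 22.4 FPKM, so KJ lay below both of its labelled parents.

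The remaining 3 genes called lower in KJ had mean levels between 0.307 and 0.333 of those in K. Nitab4.5_0002697g0030 had 5.86, 6.51 and 4.85 FPKM in KJ and 15.2, 18.9 and 17.8 in K (log2 fold change -1.44 ± 0.13 SE, adjusted p = 0.000168, limma). The ratio of means was 0.333 for this gene, 0.307 for Nitab4.5_0001740g0070 and 0.329 for Nitab4.5_0000268g0080. With quantile normalization the log2 fold change of the last of these was -0.99, short of the fold limit. The 13 genes that were not called include 7 with an adjusted p of at most 0.05 and a smaller fold change. With no fold limit 13 of the 19 genes were thus lower, where 27.2% of all tested genes were, again not a like comparison. With median-of-ratios scaling Nitab4.5_0000363g0020, Nitab4.5_0003151g0070 and Nitab4.5_0013479g0010 passed the limit of 0.05 no longer (adjusted p = 0.0546, 0.609 and 0.565, limma). Among the 7 genes Nitab4.5_0002977g0010 had 1.14, 1.39 and 1.47 FPKM in KJ and 3.64, 3.90 and 3.36 in K, a ratio of 0.367. It was called without KJ replicate 2, KJ replicate 3 or K replicate 3 (log2 fold change -1.01, -1.03 and -1.03), and Nitab4.5_0005645g0010 without K replicate 3 (-1.01). Nitab4.5_0005645g0010, Nitab4.5_0000660g0010 and Nitab4.5_0001239g0020, all low genes, had ratios of 0.412, 0.470 and 0.487, and Nitab4.5_0000363g0020 had 0.608. Nitab4.5_0012336g0030, with 3.39, 4.52 and 3.68 FPKM in KJ and 10.2, 4.91 and 13.0 in K, had an adjusted p of 0.0701 (limma), and was called without K replicate 2 (log2 fold change -1.37).

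A further 6 genes had a ratio of KJ to K of 0.733 or more, near the 0.82 of the genes expressed in G, J and K. In KJ the abundant Nitab4.5_0006411g0010 had 65.2, 64.6 and 68.5 FPKM, against 88.2, 38.9 and 118 in K, a log2 fold change of -0.16 with a 95% confidence interval from -1.05 to 0.73. Nitab4.5_0003151g0070 had 45.6, 65.1 and 65.5 FPKM in KJ and 85.2, 71.7 and 77.9 in K, a log2 fold change of -0.42 (-0.74 to -0.11). Nitab4.5_0000287g0070, Nitab4.5_0000363g0030, Nitab4.5_0001740g0010 and Nitab4.5_0013479g0010 had log2 fold changes of -0.31, -0.20, -0.38 and -0.41. The 18 genes had ratios of 0.0995 to 0.184 in 3 genes, of 0.307 to 0.608 in 9 and of 0.733 to 0.833 in 6, ranges that were set after the ratios were seen.

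**Figure D2:**
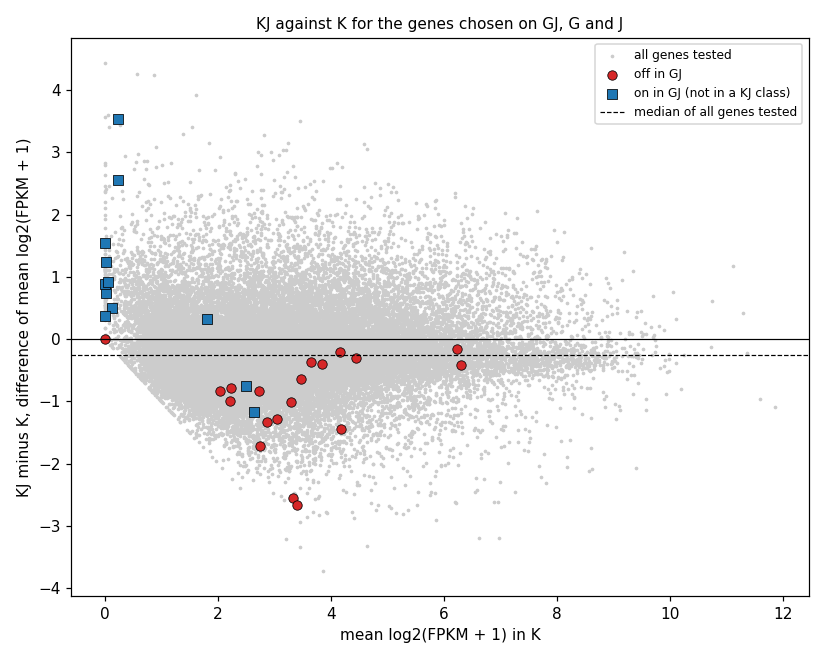
Difference between KJ and K in mean log2(FPKM + 1), on the y axis, against the mean log2(FPKM + 1) in K, on the x axis. Grey points are the 37232 tested genes, red circles the 19 genes off in GJ and blue squares the 12 genes on in GJ that are in no class of KJ, and the dashed line is the median of all tested genes at -0.26. No red point lies above 0, although 2 of them do with median-of-ratios scaling, and 10 of the 12 blue points lie above 0.

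The 17 genes on in GJ were for the most part weakly expressed there. Their GJ means ran from 1.32 to 57.5 FPKM with a median of 3.44, and 6 were under 2 FPKM. In G and J, 61 of the 102 values were exactly 0, the highest was 0.19 FPKM, and 6 genes were listed at 0 in all 6 parental libraries. Nitab4.5_0005251g0020 stood above the rest, with 52.9, 53.8 and 65.9 FPKM in GJ and 0 in every G and J library. Nitab4.5_0008647g0010 had 10.6, 8.90 and 10.8 FPKM in GJ, Nitab4.5_0005251g0030 had 5.43, 13.4 and 9.16 and Nitab4.5_0000519g0310 had 3.90, 4.52 and 1.89, all with 0 in every G and J library. The last 2 genes at 0 in all parental libraries were Nitab4.5_0001740g0130, with 3.28, 2.44 and 2.19 FPKM in GJ, and Nitab4.5_0010123g0030, with 1.62, 1.29 and 1.54.

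Replicates of GJ differed widely for a part of the class. In 4 of the 17 genes the highest GJ library was at least 3 times the lowest. Nitab4.5_0005400g0020 had 5.92, 1.18 and 18.8 FPKM in GJ, a range of 15.9-fold, against at most 0.13 FPKM in G and J. Nitab4.5_0001327g0090 had 4.84, 23.4 and 31.6 FPKM in GJ against at most 0.11 in G and J, and Nitab4.5_0000326g0110 had 4.80, 12.0 and 14.6 against at most 0.11. For these last 2 genes GJ replicate 1 was the lowest, while for Nitab4.5_0005400g0020 and Nitab4.5_0008527g0010 (4.39, 2.12 and 11.01 FPKM) replicate 2 was.

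**Figure D3:**
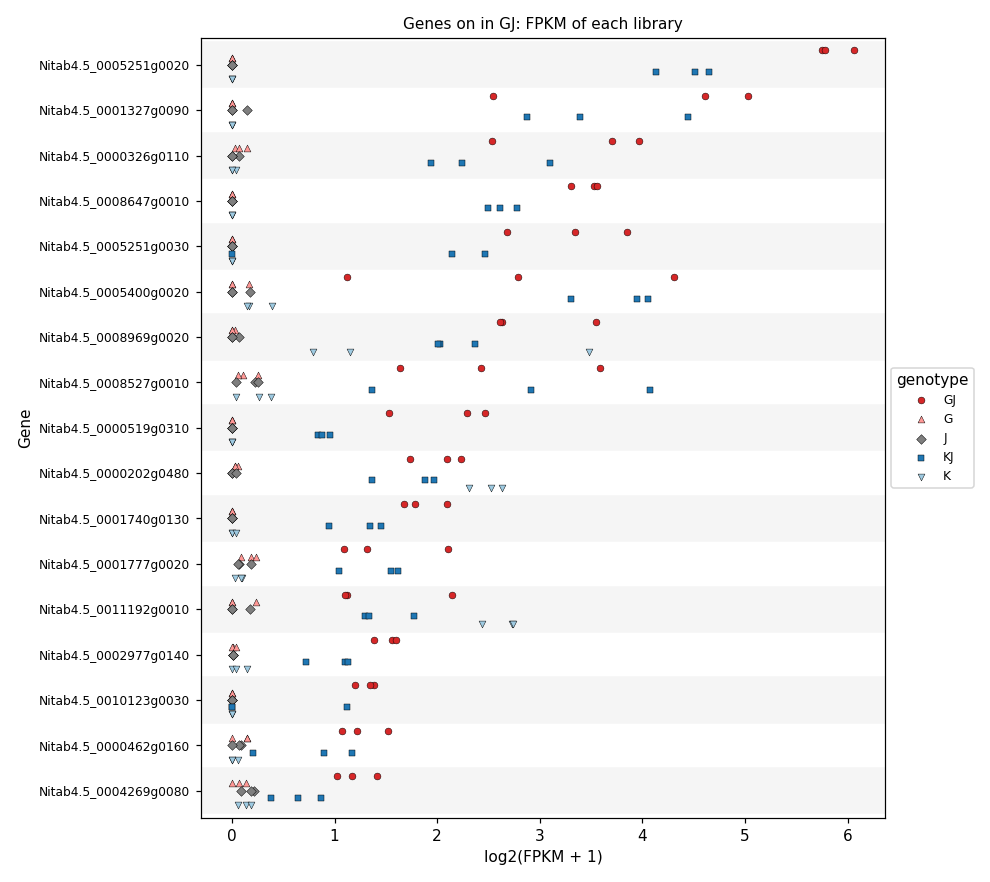
FPKM of each of the 15 libraries, as log2(FPKM + 1) on the x axis, for the 17 genes on in GJ, with the gene of the highest GJ mean at the top. Each point is a library. The G and J points lie next to 0 by the choice of genes, the KJ points of most genes lie between 0 and the GJ points, and the K points lie near 0 except in a few genes.

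Most of these genes were also seen in KJ. In 14 of the 17 every KJ library was above 0.2 FPKM, and in 10 every KJ library had 1 FPKM or more, against 0.493% and 0.0768% of the 24726 genes that were at 0.2 FPKM or less in all G and J libraries. The 3 exceptions were Nitab4.5_0010123g0030 (0, 0 and 1.18 FPKM in KJ), Nitab4.5_0005251g0030 (4.52, 0 and 3.41) and Nitab4.5_0000462g0160 (0.15, 0.86 and 1.25). In K, the mother of KJ, 12 of the 17 genes were at 0.2 FPKM or less in every library, against 96% of the 24726 genes, and 2 were at 1 FPKM or more in every library, against 0.0283%. The remaining 3, Nitab4.5_0005400g0020, Nitab4.5_0008527g0010 and Nitab4.5_0008969g0020, met neither of these limits in all K libraries. All KJ libraries lay above all K libraries in 12 of the 17 genes and below them in 2, against 1.3% and 0.748% of the 24726. The rule held the 5 genes on in both hybrids to these levels of K and KJ. They therefore enter the counts of 14, 10, 12 and 12 by choice. The 24726 genes also include the 17 themselves, so the counts are descriptions with no test. Levels in KJ were mostly lower than in GJ. The ratio of means, KJ over GJ, was below 1 in 15 of the 17 genes with a median of 0.523, against a median of 0.891 over the 32171 genes with 1 FPKM or more in every GJ library. GJ took part in choosing the genes, so this is a description.

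Of the 12 genes that belong to no class of KJ, 4 were called higher in KJ than in K and 1 was called lower by the same limma test, where 3.19% of all tested genes were called higher and 6.08% lower. With KJ and K fitted alone 3 were called higher, where 2.74% of all tested genes were. Tested genes had to reach 1 FPKM in 3 or more libraries. Nitab4.5_0001740g0130 and Nitab4.5_0005251g0030, both called, did so only with the libraries of GJ, which chose them. The 12 genes also leave out those with K and KJ values that met the rule. The shares of all tested genes are therefore not a like comparison. Nitab4.5_0005400g0020 had 8.85, 14.5 and 15.7 FPKM in KJ and 0.31, 0.12 and 0.11 in K (log2 fold change 3.54 ± 0.55 SE, adjusted p = 0.00132, limma). Nitab4.5_0008527g0010 had 1.58, 6.54 and 15.8 FPKM in KJ and 0.30, 0.03 and 0.20 in K (log2 fold change 2.56 ± 0.56 SE, adjusted p = 0.00601, limma). The 3 KJ libraries of the second gene differed widely. For both genes the mean of KJ was above that of GJ, at 13.0 against 8.63 FPKM for the first and 7.98 against 5.84 FPKM for the second. Nitab4.5_0001740g0130 was the steadiest of the 4, with 0.93, 1.55 and 1.74 FPKM in KJ and 0, 0 and 0.03 in K (log2 fold change 1.24 ± 0.16 SE, adjusted p = 0.000592, limma). Nitab4.5_0005251g0030, listed at 0 in all K libraries, was called with a fitted difference of 1.54 on the log2 scale (adjusted p = 0.0294, limma), and the call ended without any single one of KJ replicates 1 and 3 and K replicates 1, 2 and 3, with an adjusted p between 0.0542 and 0.119, and also with KJ and K fitted alone (adjusted p = 0.0999, limma).

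Of the 7 genes without a call, 4 were higher in KJ with a change under the fold limit. Nitab4.5_0002977g0140 had 0.65, 1.14 and 1.19 FPKM in KJ and 0.11, 0 and 0.03 in K, a log2 fold change of 0.92 (adjusted p = 0.00129, limma). Nitab4.5_0000519g0310 had 0.79, 0.84 and 0.94 FPKM in KJ and 0 in K, a fitted difference of 0.89 on the log2 scale (adjusted p = 0.006, limma). Nitab4.5_0000462g0160 and Nitab4.5_0004269g0080 had 0.74 and 0.50, and these 4 genes bring the number higher in KJ at an adjusted p of at most 0.05, with no fold limit, to 8 of 12, where 6.99% of all tested genes were higher by that rule. All 4 reached 1 FPKM in 3 libraries, as tested genes had to, only with the libraries of GJ, which chose them. That share is therefore not a like comparison. Without KJ replicate 1, Nitab4.5_0002977g0140 and Nitab4.5_0000462g0160 were called, at 1.05 and 1.01. Nitab4.5_0010123g0030, seen in a single KJ library, had a fitted log2 difference of 0.37 with a 95% confidence interval from -0.15 to 0.90.

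A few genes on in GJ were expressed by K, which is not a parent of GJ. Nitab4.5_0011192g0010 had 3.43, 1.17 and 1.15 FPKM in GJ, 2.41, 1.46 and 1.52 in KJ and 4.42, 5.62 and 5.66 in K, and was lower in KJ than in K (log2 fold change -1.17 ± 0.24 SE, adjusted p = 0.00486, limma). That call ended with median-of-ratios scaling (log2 fold change -0.93) and with quantile normalization (-0.86). Nitab4.5_0000202g0480 had 2.32, 3.29 and 3.70 FPKM in GJ, 2.92, 2.69 and 1.58 in KJ and 5.22, 4.77 and 3.97 in K (log2 fold change -0.75, adjusted p = 0.0074, limma, short of the fold limit). In G and J these 2 genes had at most 0.18 FPKM. Nitab4.5_0008969g0020 had 10.7, 5.19 and 5.11 FPKM in GJ, 3.08, 4.18 and 3.02 in KJ and 10.2, 1.22 and 0.73 in K, where replicate 1 stood far above the others. Without K replicate 1 its log2 fold change between KJ and K was 1.17 and it was called higher in KJ.

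The 5 genes on in both hybrids met the same limits in G, J and K. They are Nitab4.5_0005251g0020, Nitab4.5_0001327g0090, Nitab4.5_0000326g0110, Nitab4.5_0008647g0010 and Nitab4.5_0001777g0020. Since J is a parent in both crosses, the lists are not independent, and no test is given for these genes because every library took part in their choice. Nitab4.5_0005251g0020 had 24.1, 21.9 and 16.5 FPKM in KJ and 0 in K, and its mean in KJ was 0.362 of that in GJ. Nitab4.5_0008647g0010 had 5.10, 5.88 and 4.64 FPKM in KJ and 0 in K, a mean 0.516 of that in GJ. For both genes the 3 KJ libraries lay below the 3 GJ libraries. The other 3 overlapped between the hybrids. Nitab4.5_0001327g0090 had 20.8, 9.51 and 6.33 FPKM in KJ, Nitab4.5_0000326g0110 had 7.59, 3.72 and 2.83 and Nitab4.5_0001777g0020 had 1.06, 1.93 and 2.08, against 3.30, 1.13 and 1.49 in GJ for the last gene.

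Only 2 genes were off in KJ, and both were uneven among the parental libraries. Nitab4.5_0023385g0010 was listed at 0 in all KJ libraries, against 6.03, 30.1 and 2.58 FPKM in K and 12.8, 17.3 and 11.4 in J. Nitab4.5_0001267g0020 had 0.03, 0.18 and 0.02 FPKM in KJ, against 4.94, 30.7 and 5.93 in K and 2.46, 4.32 and 2.27 in J. In both genes K replicate 2 and J replicate 2 were the highest of their genotypes, and so was G replicate 1. These are the libraries with the lowest r within G, J and K, and their part in this class was not tested beyond the count without them, which was 2. The number of genes off in KJ was 8 without KJ replicate 2 and 1 with median-of-ratios scaling. With looser limits, of 1 FPKM in the parents and 0.5 FPKM in the hybrid, 87 genes were off in KJ and 37 in GJ. Which hybrid had more genes off thus depended on the limits. In the cross that did not choose the 2 genes, Nitab4.5_0023385g0010 had 1.48, 3.68 and 0 FPKM in GJ and 37.3, 5.86 and 7.38 in G. The GJ libraries lay below all G libraries, with a log2 fold change of -2.52 ± 0.78 SE and an adjusted p of 0.0501, just above the limit of 0.05 in limma's test, so it was not called. Without a single library the log2 fold change ran from -3.05 to -1.74, with the smallest change without G replicate 1 (adjusted p = 0.154, limma), and the adjusted p from 0.0436 without G replicate 3 to 0.16 without GJ replicate 3. With GJ and G fitted alone it was 0.134. Nitab4.5_0001267g0020 had 0.11, 1.26 and 0.21 FPKM in GJ and 3.37, 1.13 and 0.26 in G, and its groups overlapped (log2 fold change -0.65, 95% confidence interval -1.90 to 0.60). Neither gene was at 0.2 FPKM or less in all GJ libraries, as 0.0694% of the 27361 genes with 2 FPKM or more in all K and J libraries were. So 0 of 2 genes were called in GJ against G by limma, 1 had an unadjusted p below 0.05, and 2.44% of all tested genes were called lower in GJ. With GJ and G fitted alone 0 of 2 were called, where 1.1% of all tested genes were called lower. Tested genes include some below the 2 FPKM in K and J that chose these 2 genes, so the shares are not a like comparison.

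The 13 genes on in KJ had KJ means from 1.10 to 20.8 FPKM with a median of 4.83, and 55 of their 78 values in K and J were exactly 0. The number was 27 without KJ replicate 1 and 23 without KJ replicate 2. Beside the 5 genes shared with GJ, 8 genes were found in this class. In GJ, 11 of the 13 genes were above 0.2 FPKM in every library and 10 had 1 FPKM or more in every library, against 0.33% and 0.0967% of the 24822 genes at 0.2 FPKM or less in all K and J libraries. In G, 6 of the 13 were at 0.2 FPKM or less in every library and 3 were at 1 FPKM or more in every library, against 95.7% and 0.0765%. The rule for GJ held the 5 shared genes to 1 FPKM or more in GJ and 0.2 FPKM or less in G. They therefore enter the counts of 11, 10 and 6 by choice. The 24822 genes also include the 13 themselves, so the counts are descriptions with no test.

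A set of 3 genes on in KJ was expressed by G, which is not a parent of KJ. Nitab4.5_0000069g0380 had 13.1, 11.8 and 9.87 FPKM in KJ and at most 0.07 in K and J, while GJ had 20.7, 15.5 and 14.3 and G had 12.5, 10.8 and 18.3. Nitab4.5_0004024g0020 had 5.31, 5.58 and 7.65 FPKM in KJ and 0 in every K and J library, while GJ had 15.8, 13.3 and 7.42 and G had 6.82, 5.65 and 4.88. Nitab4.5_0006718g0010 had 2.26, 2.89 and 2.20 FPKM in KJ and 0 in every K and J library, while GJ had 7.09, 5.80 and 4.98 and G had 5.50, 4.83 and 7.27. Between GJ and G none of the 3 was called by limma. The log2 fold changes were 0.28 (95% confidence interval -0.12 to 0.67), 0.91 (0.44 to 1.38, adjusted p = 0.0184) and 0.02 (-0.30 to 0.35). Without GJ replicate 3 or G replicate 1, Nitab4.5_0004024g0020 was called higher, at 1.20 or 1.02.

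By limma's moderated test of GJ against G, 3 of the 8 genes on in KJ alone were higher in GJ and 0 were lower, where 2.39% of all tested genes were called higher. The 8 genes leave out those with G and GJ values that met the rule. Of the 3 called, Nitab4.5_0004861g0040 reached 1 FPKM in 3 libraries, as tested genes had to, only with those of KJ, which chose it. The shares of all tested genes are therefore not a like comparison. With GJ and G fitted alone 1 of the 8 stayed called, Nitab4.5_0000100g0110 (adjusted p = 0.0478, limma), where 1.15% of all tested genes were called higher, and Nitab4.5_0001756g0020 (adjusted p = 0.15) and Nitab4.5_0004861g0040 (0.0975) were not. Nitab4.5_0000100g0110 had 2.24, 1.42 and 2.84 FPKM in GJ and 0.47, 0.44 and 0.46 in G (log2 fold change 1.09 ± 0.18 SE, adjusted p = 0.00287, limma). Nitab4.5_0001756g0020 had 1.31, 3.27 and 1.29 FPKM in GJ and 0, 0 and 1.09 in G (log2 fold change 1.14 ± 0.28 SE, adjusted p = 0.0213, limma). Nitab4.5_0004861g0040 had 1.36, 0.85 and 4.76 FPKM in GJ and 0 in G (fitted log2 difference 1.55 ± 0.40 SE, adjusted p = 0.0259, limma), and it missed the class of GJ by the library at 0.85. The calls also changed without single libraries. Nitab4.5_0000100g0110 was at 0.94 without GJ replicate 3 (adjusted p = 0.014, limma), under the fold limit. Nitab4.5_0001756g0020 was not called without GJ replicate 2 (0.85) or without G replicate 1 or 2 (0.97 each). Nitab4.5_0004861g0040 was not called without GJ replicate 1 (1.71), GJ replicate 3 (1.06) or G replicate 1 or 2 (1.55 each), with an adjusted p between 0.0541 and 0.0774 (limma). The other genes were Nitab4.5_0000945g0050, whose GJ libraries (0.07, 3.89 and 3.13 FPKM) and G libraries (0.17, 0.07 and 3.46) both held high and low values, and a gene listed at 0 in every GJ library. Nitab4.5_0022027g0010 had 7.28, 5.15 and 1.75 FPKM in KJ, 0 in all GJ libraries and 0, 0 and 0.96 in G.

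**Figure D4:**
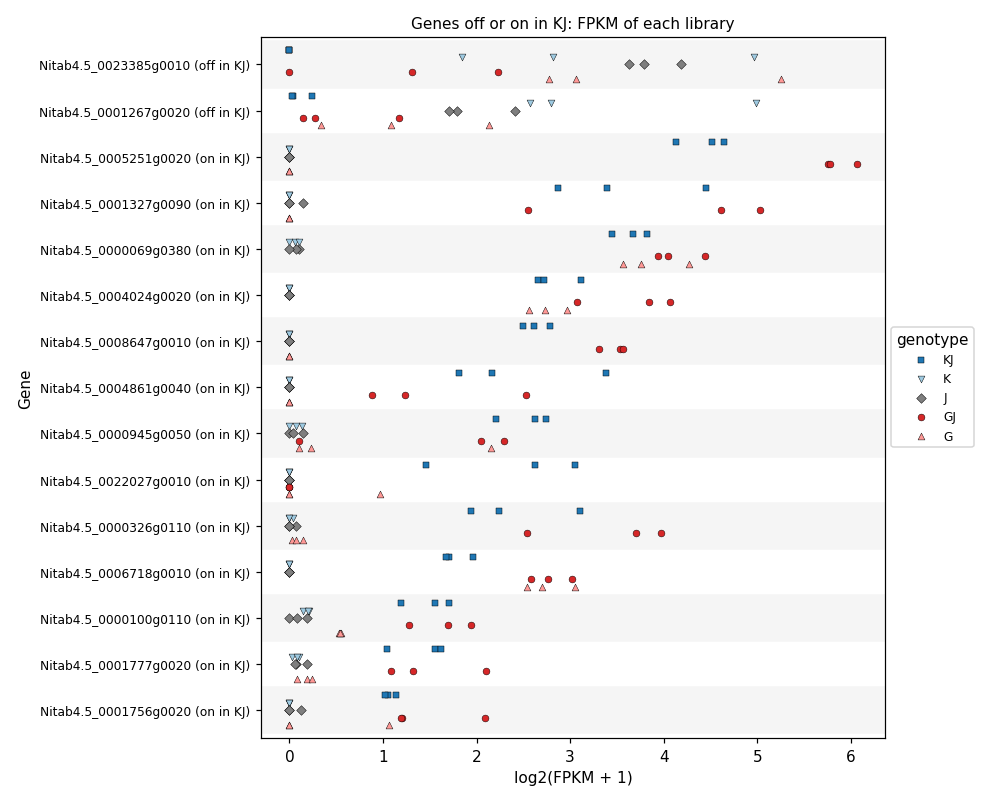
FPKM of each of the 15 libraries, as log2(FPKM + 1) on the x axis, for the 2 genes off and the 13 genes on in KJ. Each point is a library. The KJ points of the 2 upper genes and the K and J points of the 13 lower genes lie next to 0 by the choice of genes. The G points lie far from 0, next to the GJ points, for Nitab4.5_0000069g0380, Nitab4.5_0004024g0020 and Nitab4.5_0006718g0010.

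Several members shared the first number of their identifier. The number is taken here as a name for a block of gene models, with no claim on their distance in the genome. The 46 genes fell in 40 of 12822 blocks, and 5 blocks held 2 or more of them, with 11 genes in all. One block held Nitab4.5_0001740g0010 and Nitab4.5_0001740g0070, both off in GJ, and Nitab4.5_0001740g0130, which was on. Other genes of this block were low in GJ but outside the limits. Nitab4.5_0001740g0020 had 0.95, 1.56 and 1.28 FPKM in GJ, against 6.87, 5.82 and 5.93 in G and 7.03, 6.79 and 5.70 in J. Nitab4.5_0001740g0120 was listed at 0 in all GJ libraries, against 1.75, 1.29 and 1.56 in G and 1.01, 1.22 and 1.03 in J. Nitab4.5_0001740g0100, in contrast, had 2.97, 3.39 and 2.96 FPKM in GJ, against 4.01, 1.61 and 2.89 in G and 3.19, 3.58 and 2.77 in J.

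In another block the members Nitab4.5_0000363g0020 and Nitab4.5_0000363g0030 came after Nitab4.5_0000363g0010, which had 0, 0.64 and 0 FPKM in GJ, against 57.4, 65.3 and 130 in G and 88.8, 88.9 and 75.1 in J, and missed the rule by a single GJ library. Later genes of this block were mixed. Nitab4.5_0000363g0140 had 1.99, 1.78 and 1.78 FPKM in GJ, against 8.06, 7.93 and 7.44 in G and 5.47, 6.44 and 5.93 in J, while Nitab4.5_0000363g0290 had 18.2, 19.6 and 21.3 FPKM in GJ, against 26.9, 21.9 and 21.9 in G and 22.9, 21.4 and 20.7 in J. The other blocks held Nitab4.5_0012336g0020 and Nitab4.5_0012336g0030, both off in GJ, Nitab4.5_0005251g0020 and Nitab4.5_0005251g0030, both on in GJ, and Nitab4.5_0002977g0010 off and Nitab4.5_0002977g0140 on in GJ. Over the 16 blocks with a gene off in GJ, 79 other genes had 2 FPKM or more in every G and J library. Their ratio of GJ to the parental mean had a median of 0.926, against 0.942 over all 26668 such genes. A ratio of 0.25 or less was found in 5 of the 79, or 6.33%, against 0.791% of the 26668. These neighbours were measured in the libraries that chose the members, so no test is given.

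**Figure D5:**
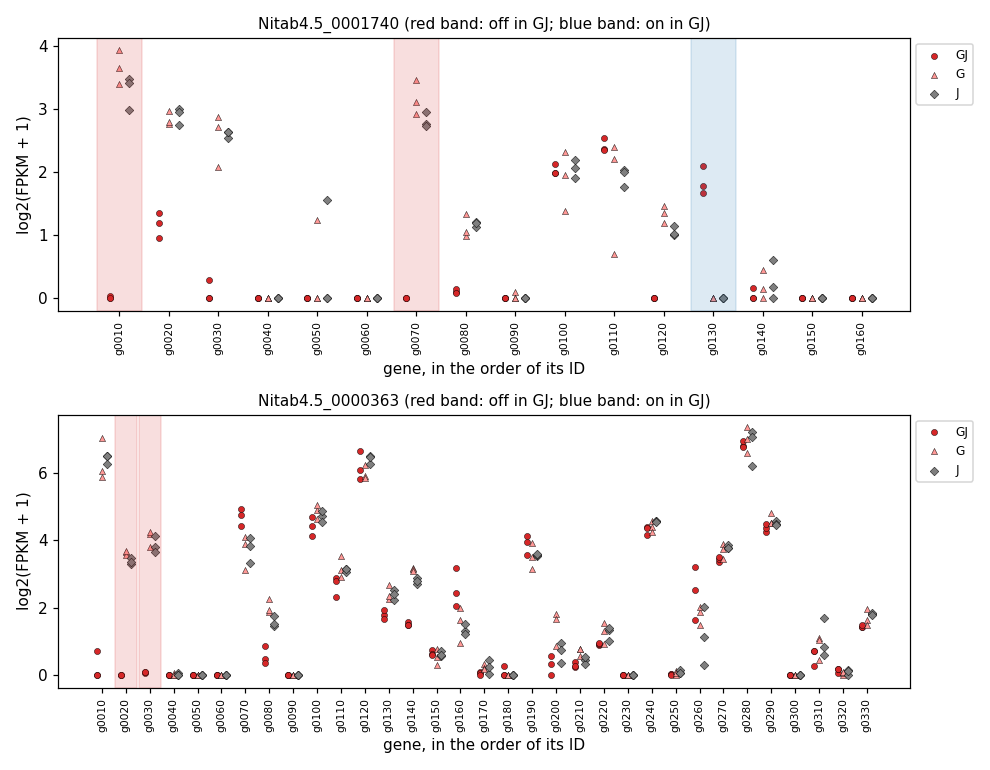
log2(FPKM + 1) of each GJ, G and J library, on the y axis, for all genes of 2 identifier blocks, in the order of their identifiers on the x axis. Red bands mark genes off in GJ and a blue band a gene on in GJ. In the upper block all GJ values lie below all G and J values for g0010, g0020, g0030, g0070, g0080 and g0120. For g0100 and g0110 the GJ values overlap those of G and J. In the lower block the first 3 genes have GJ values next to 0 and far below those of G and J.

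The values next to the limits of the rule show how close other genes came to each class. For genes off in GJ, the lowest parental library inside the rule was at 2.02 FPKM (Nitab4.5_0002977g0010) and the closest gene outside at 1.98 (Nitab4.5_0007553g0020), while the highest GJ library inside was at 0.16 (Nitab4.5_0003151g0070) and the closest outside at 0.23 (Nitab4.5_0001740g0030). For genes on in GJ, the lowest GJ library inside was at 1.03 (Nitab4.5_0004269g0080) and the closest outside at 0.85 (Nitab4.5_0004861g0040), and the highest parental library inside at 0.19 (Nitab4.5_0008527g0010) and outside at 0.26 (Nitab4.5_0002914g0140). For genes off in KJ, the lowest parental library inside was at 2.27 and the highest KJ library at 0.18, both in Nitab4.5_0001267g0020, and the closest outside were at 1.45 (Nitab4.5_0004524g0060) and 0.38 (Nitab4.5_0000832g0040). For genes on in KJ, the lowest KJ library inside was at 1.03 (Nitab4.5_0001756g0020) and outside at 0.93 (Nitab4.5_0000235g0180), and the highest parental library inside at 0.16 (Nitab4.5_0000100g0110) and outside at 0.21 (Nitab4.5_0006582g0050).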

How the data were processed

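RNA of young roots from 5 tobacco genotypes, with 3 libraries each, was sequenced as read pairs. The authors discarded short and low-quality reads, mapped to the K326 genome and quantified genes by RSEM, which gave the FPKM table that was deposited. The study names Tophat2 for the mapping and the labels list HISAT2, StringTie and RSEM, without versions. From their sums, the FPKM could also be TPM. Single plants or pools are not stated per library, so p-values measure only the spread between these libraries.

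Genes were chosen on the FPKM as deposited. The members and all lists were chosen with earlier results of these data known. For the tests, log2(FPKM + 1) of 37232 genes, those reaching 1 FPKM in 3 or more libraries, was fitted by genotype over all 15 libraries with limma 3.58.1 in R 4.3.3 (trend and robust options, no covariate, two-sided, Benjamini-Hochberg adjustment). A call needed an adjusted p not above 0.05 and a log2 fold change of 1 or more in size, the fold limit of the study. The study's DESeq2 test needs counts and was not run. The fit was tested on simulated data. Plots and counts were made with Python 3.11.15, NumPy 2.4.6, pandas 2.3.3 and matplotlib 3.10.9.

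Named genes were, by rule, all members of a class of 10 or fewer, the 10 highest of a larger class, genes in 2 classes, those next to a limit and the 3 largest called changes per class. The other members and the block neighbours were named after their values were seen. Alternatives were other limits, pseudocount 0.1, other filters, scalings and fits, a replicate block, and leaving out each library. Counts with no fold limit and with a hybrid and its mother fitted alone are given beside the share of all tested genes. A fit without 3 libraries (replicate 1 of G and replicate 2 of J and of K) was added after the data were seen. No sequences were printed, since the identifiers matched 0 entries of the RefSeq gene table at hand.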

Additional observations from a re-analysis of the deposited data

Results flagged for a closer look

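Against their mothers, the hybrids differed in opposite directions for 2 genes on in GJ, with no overlap between libraries in either cross. Nitab4.5_0000202g0480 averaged 3.10 FPKM in GJ and 0.0267 in G, and 2.40 in KJ and 4.65 in K. Nitab4.5_0011192g0010 averaged 1.92 FPKM in GJ and 0.06 in G, and 1.80 in KJ and 5.23 in K. The difference between the crosses was not tested, because GJ and G took part in the choice of both genes. Dixon's test was not applied, since each genotype has 3 libraries.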

How the results depend on the processing

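The number of genes in a class rests on its limits. With limits of 1 FPKM (0.5 for genes on) and 0.5 FPKM, 37 genes were off and 96 on in GJ, and 87 off and 103 on in KJ. With 5 FPKM (2 for genes on) and 0 on the silent side these were 5, 4, 0 and 5. Median-of-ratios scaling left 1 gene off in KJ. Without a single library, the numbers were 19 to 22 off and 17 to 25 on in GJ, and 2 to 8 off and 14 to 27 on in KJ. Without replicate 1 of G and replicate 2 of J and of K, 20 genes were on in KJ.

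For genes off in GJ, 10 were called lower in KJ than in K with a pseudocount of 0.1 and 13 with no fold limit, and 6 to 8 without a single library. For genes on in GJ, 8 were called higher with either of these settings, 3 with a mean filter of 1 FPKM and 3 to 5 without a single library. For genes off in KJ, 1 was called lower in GJ than in G with a mean filter of 1 FPKM, with median-of-ratios scaling, without trend and robust options and with the replicate block, and 0 to 1 without a single library. For genes on in KJ, 1 was called higher with the mean filter and with GJ and G fitted alone, and 1 to 3 without a single library. Of the log2 fold changes of single genes over all settings, 558 kept their direction and side of the threshold, 43 gained a call, 22 lost it and 9 changed sign, the last in genes without a call in either fit. The setting with no fold limit is the main fit itself, so it could neither change a sign nor end a call. It gives 27 of the 558 and 13 of the 43. With median-of-ratios scaling Nitab4.5_0000363g0030 turned to 0.094 and Nitab4.5_0006411g0010 to 0.15. Without a single library, Nitab4.5_0000363g0030 ranged from -0.46 to 0.010, Nitab4.5_0006411g0010 from -0.62 to 0.17, Nitab4.5_0008969g0020 from -0.18 to 1.17 and Nitab4.5_0006718g0010 from -0.091 to 0.17, and the last was -0.0084 without G replicate 1, with or without replicate 2 of J and of K.

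The replicate numbers of the titles were not taken as pairs. Deviations of same-numbered libraries correlated above 0.1 in 8 of 30 pairs. Between J and K all 3 did (0.215, 0.546 and 0.281), but no comparison here sets these against each other. Between the groups compared the values were -0.152, 0.146 and -0.11 for KJ and K and -0.198, -0.033 and -0.165 for GJ and G, and 1 of 6 hybrid libraries was closest to its own number in the mother. The replicate block changed the call of Nitab4.5_0023385g0010 alone (log2 fold change -2.52, adjusted p = 0.0446, limma) and left 6, 4 and 3 calls in the other classes. Without counts, no depth limit can be set for values near 0.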
